A study of Ovis aries with 6 samples.

Results

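The cytosolic ribosomal protein genes code for the proteins of the large and the small subunit of the ribosome in the cytosol. Here they were taken by name, as every gene named RPL or RPS with a number and at most a letter or an L after it, together with RPLP0, RPLP1, RPLP2 and RPSA. The rule used no measured value and found 74 of the 28394 genes in the files, 44 of the large and 30 of the small subunit. Genes of the mitochondrial ribosome and the RPS6K kinases were left out by it. Each ribosome holds these proteins on a scaffold of ribosomal RNA, the small subunit reading the message and the large subunit joining the amino acids. Their mRNAs are short and abundant, and they begin with a run of pyrimidines, the 5′TOP, through which growth signals acting by mTOR and LARP1 set their translation as a group. In skin, the dividing cells of the epidermis and of the wool follicle bulb make new ribosomes throughout life.

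Skin was taken from behind the shoulder blade of 3 Small Tail Han (STH) and 3 Super Merino (SM) sheep, and polyA RNA of each sheep was sequenced as 1 library. Sheep 128, 30034 and 30126 were SM, and XW3, XW5 and XW8 were STH, so that n = 3 for each breed. All were ewes, per the study's methods from 1 farm with the same feed, and the sample records give their age as 9 months, whereas the methods give a lower age. Merino sheep carry a dense fleece of fine wool, and the study compared the 2 breeds for differences between their skins. Breed was the only difference that the labels give between the groups.

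Total counts ranged from 28870583 to 44645091 per library, and 3 counts of a gene corresponded to between 0.0672 and 0.104 CPM, the count scaled to a common library total. The fragments counted in genes made up 65.5%, 71.0% and 77.3% of the fragments behind the RPKM values in 128, 30034 and 30126 (SM), and 70.1%, 66.9% and 66.6% in XW3, XW5 and XW8 (STH). This exonic share was highest in 30126, which is also the sheep that stood apart in most results below. Of the skin markers, the summed level of 3 keratinocyte genes was 5830 to 7277 CPM in SM and 7090 to 12507 CPM in STH sheep, and that of 4 fibroblast genes 10253 to 15048 and 12071 to 14443 CPM. The 4 smooth muscle markers summed to 970 to 1175 CPM in SM and 1541 to 1984 CPM in STH sheep, without overlap, while the breeds overlapped in TAGLN. The 3 adipocyte markers summed to 28.8 to 64.3 and 138 to 172 CPM, mostly FABP4, while the breeds overlapped in ADIPOQ and PLIN1. The 3 endothelial markers ranged from 428 to 558 CPM in SM and from 259 to 434 CPM in STH sheep, the 3 immune markers from 64.9 to 92.3 and 81.2 to 91.2 CPM, the 2 skeletal muscle markers found from 25.1 to 39.3 and 33.9 to 41.2 CPM, and the 3 melanocyte markers from 2.18 to 2.81 and 1.89 to 2.40 CPM. The 3 blood markers found summed to at most 0.292 CPM in any library. In bulk tissue, fewer cells of a type and less RNA per cell cannot be told apart, and the part of the cell mixture in the results below was not tested.

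Ribosomal protein genes made up a large and uneven part of the skin libraries. In SM sheep 128, 30034 and 30126 they held 9.00%, 10.4% and 12.05% of all counts, and in XW3, XW5 and XW8 (STH) 9.60%, 8.69% and 8.26%. The highest share was in 30126 and the lowest in XW8, and the breeds overlapped because 128 lay below XW3. No member had a count of 0 in all sheep, so that RPKM was needed only to compare levels between genes, where it corrects for exon length.

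Per length, most members were expressed far above the median of all tested genes. Of the 74 genes, 46 had a mean RPKM over 1000, 25 were between 100 and 1000, and 3 were under 100. The median of the mean RPKM was 1152 over the members, 1088 for the large and 1366 for the small subunit, compared with 4.35 over all tested genes. Among the 100 genes with the highest mean RPKM in the files, 50 were members. In each sheep, between 47 and 52 of the 72 members with enough counts to be tested were within 2-fold of the median RPKM of those members in that sheep.

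RPS29, a small zinc-binding protein of the small subunit, had the highest mean RPKM of all genes in the files. Its RPKM was 5794, 7578 and 12910 in 128, 30034 and 30126 (SM) and 8383, 5902 and 5224 in XW3, XW5 and XW8 (STH). The level in 30126 was the highest by a wide margin and the breeds overlapped. RPL13A, a large subunit protein that can also leave the ribosome to silence transcripts after interferon gamma, was next with a mean RPKM of 3513 ± 835 (SD, n = 6). RPL31 with 2940 ± 752 and RPS27 with 2878 ± 683 were also among the 5 highest, and their means lay within 1 SD of each other.

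At the low end were members whose names mark them as relatives of another ribosomal protein. RPL10L, a copy of RPL10 known from testis, had 6 counts in 128 and 0 counts in the other 5 sheep. RPL3L, the form of RPL3 known from striated muscle, had 7, 4 and 14 counts in 128, 30034 and 30126 (SM) and 4, 2 and 0 counts in XW3, XW5 and XW8 (STH), whereas RPL3 itself had a mean RPKM of 1160 ± 257 (SD, n = 6). Both were under the minimum of 10 counts in at least 3 sheep and were not tested. Against a floor of 3 counts per library, RPL10L was detected in 1 sheep and RPL3L in 4.

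**Figure D1:**
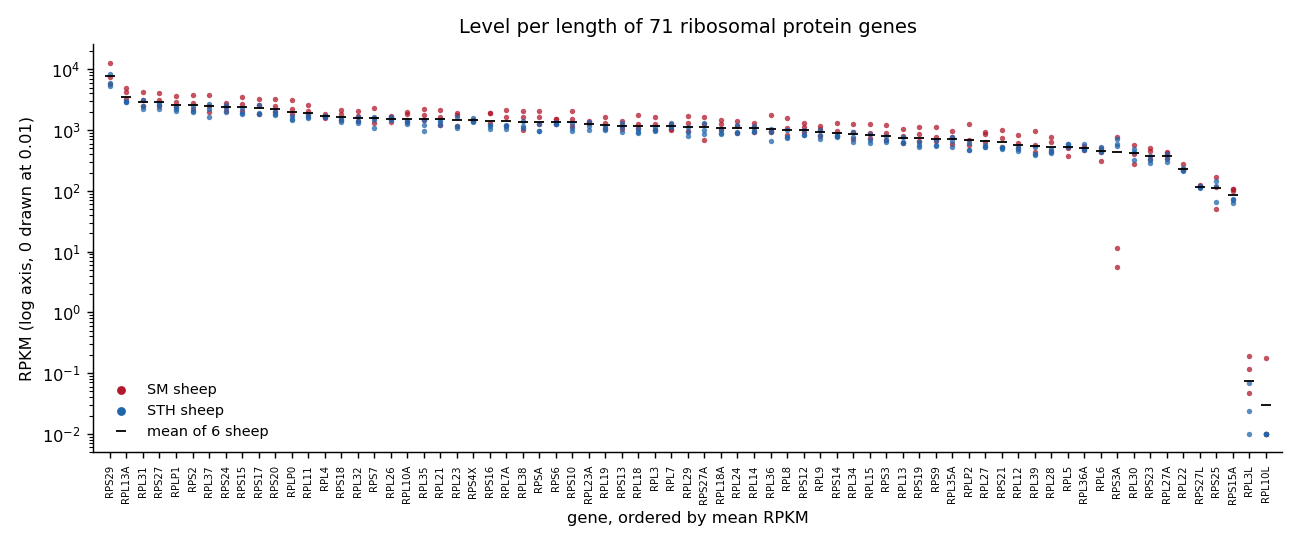
RPKM on a log axis of 71 of the 74 ribosomal protein genes, ordered by their mean over 6 sheep. Each point is 1 sheep (red SM, blue STH) and each dash a mean. Most genes form a plateau around 1000 RPKM, the 2 SM points of RPS3A lie far below the others, and RPL3L and RPL10L are close to 0.

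RPS15A, RPS25 and RPS27L completed the 5 lowest levels, with mean RPKM of 86.5 ± 19.7, 111 ± 45.8 and 117 ± 4.78 (SD, n = 6). RPS27L, a p53-inducible relative of RPS27, was therefore far below RPS27 in every sheep. Ribosomal protein genes have many processed copies in mammalian genomes, and although the counted fragments include some that matched more than 1 place, how these were shared among copies is not given in the sources used here. The levels of single members are uncertain to that extent.

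The comparison of the breeds asked which of these genes differed in level between their skins. In edgeR's quasi-likelihood test 0 of the 72 members tested passed an adjusted p under 0.05 and a change of more than 1.5-fold, in either direction. The same held for all tested genes, of which 0.0% were called. By 3 other tests 0 members passed both thresholds, beside 2.3% of all tested genes by edgeR's likelihood ratio test, 2.89% by DESeq2 and 0.0% by limma-voom. At an unadjusted p under 0.05, 12 members were higher in SM sheep, or 16.7% of those tested beside 7.21% of all tested genes, and 0 were higher in STH sheep beside 10.8% of all tested genes. These shares were not matched for exon length, which is taken up below. Every SM sheep exceeded every STH sheep in 11 members beside 12.3% of all tested genes, and the reverse held for 1 member, RPL5, beside 13.3%. The 11 members are 15.3% of those tested, a share near that of all genes. For a single gene the smallest p of an exact permutation test, two-sided, is 0.1 in this design.

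The log2 fold changes of the members leaned to SM sheep. Their median was 0.31 (SM over STH), compared with 0.02 over all tested genes, and 61 of 72 members (84.7%) were positive beside 51.4% of all tested genes. The median log2 fold change was 0.29 for the 42 tested genes of the large subunit, of which 35 were positive. It was 0.35 for the 30 genes of the small subunit, of which 26 were positive. The standard errors had a median of 0.20, so that most single members were within 2 standard errors of 0.

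**Figure D2:**
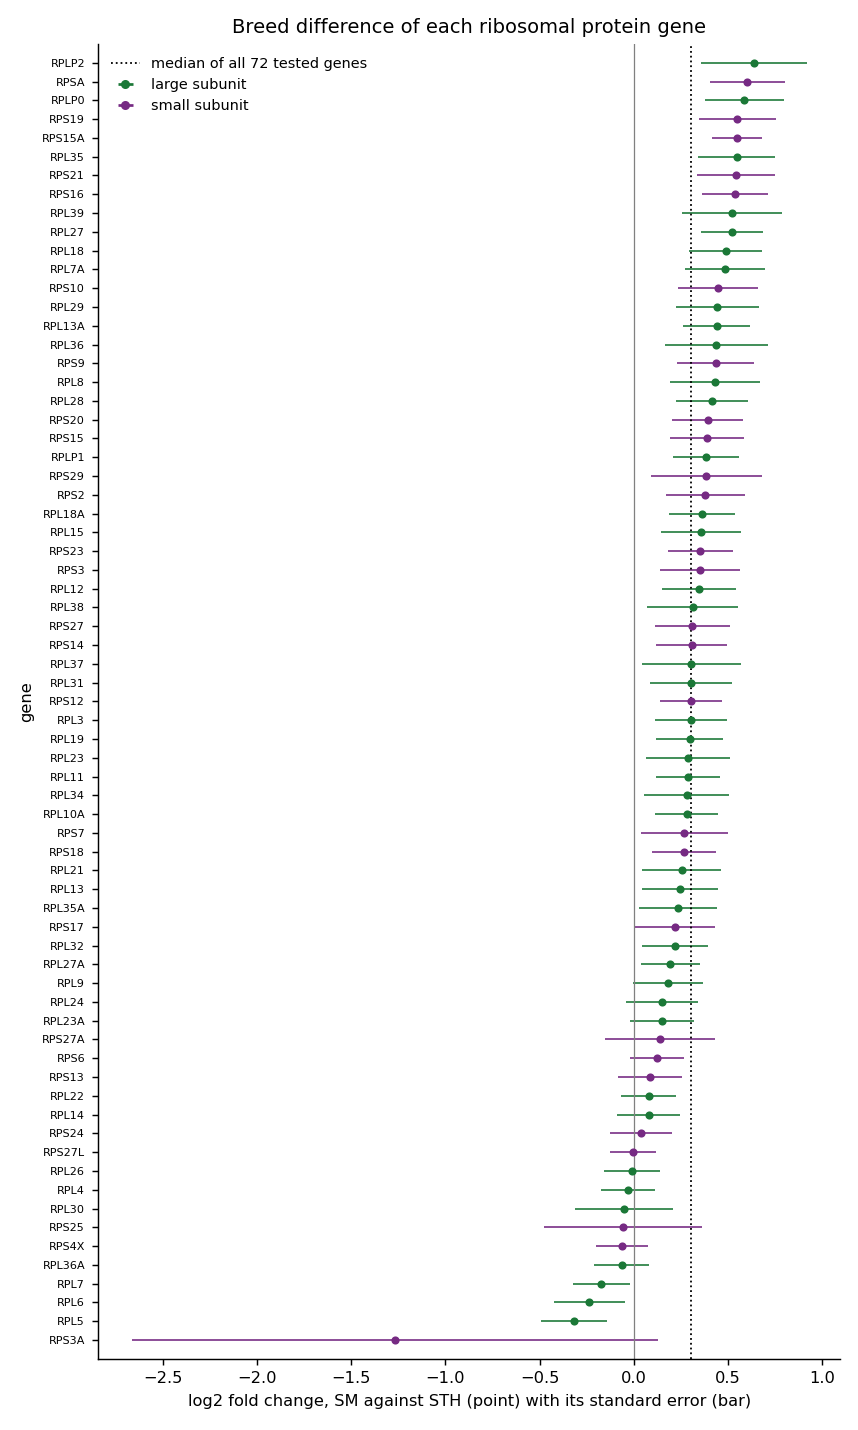
Log2 fold change, SM against STH, of 69 of the 72 tested ribosomal protein genes (points) with standard errors (bars), coloured by subunit. The dotted line is the median of all 72, 0.31. RPL5, RPL6, RPL7 and RPS3A are at the negative end and RPS3A has by far the longest bar.

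Sheep by sheep, the lean to SM was seen in 2 of the 3 SM sheep. The median deviation of the members from their own mean over 6 sheep, in log2 CPM, was -0.14, 0.10 and 0.48 in 128, 30034 and 30126 (SM). It was -0.0016, -0.18 and -0.25 in XW3, XW5 and XW8 (STH). SM sheep 128 was thus below STH sheep XW3, while 30126 was above all other sheep. For all tested genes the same medians were between 0.01 and 0.03.

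Sheep 30126 held the highest value of 63 of the 72 members (87.5%), whereas it held the highest value of 33.4% of all tested genes. XW8 held the lowest value of 45 members (62.5%), compared with 13.7% of all tested genes. The 9 members that were not highest in 30126 were RPL4, RPL5, RPL6, RPL7, RPL23A, RPL36A, RPS4X, RPS25 and RPS27L. Within the breeds the members varied more among SM than among STH sheep, with a median SD of log2 CPM of 0.34 and 0.15, and 65 of 72 members had the larger SD in SM sheep. Over all tested genes these medians were 0.28 and 0.20.

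**Figure D3:**
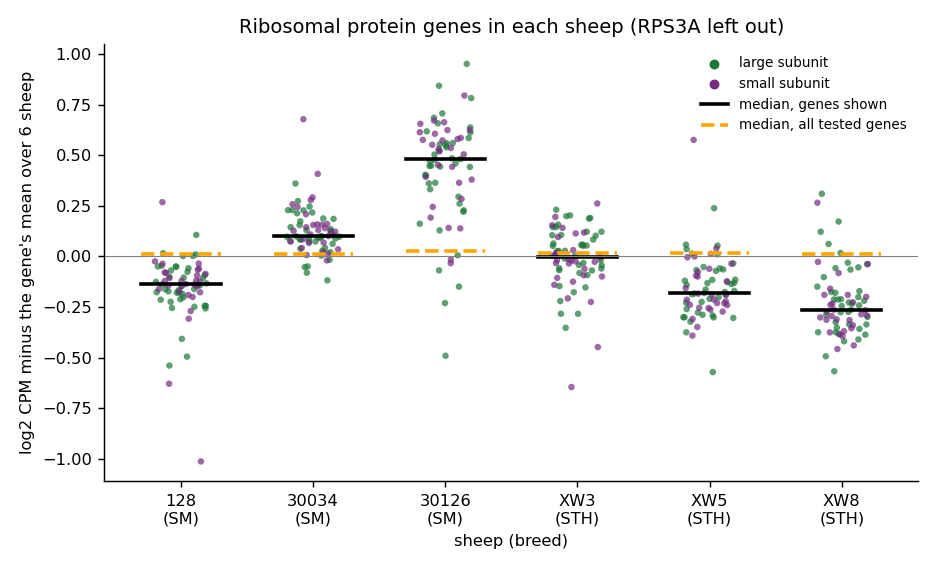
Log2 CPM of 71 ribosomal protein genes in each sheep, as the difference from the gene's mean over 6 sheep (RPS3A left out). Each point is 1 gene. Solid lines are the medians of these genes and dashed lines those of all tested genes. The members as a group are high in 30126 and low in XW8, and the dashed lines stay near 0.

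The count of members at an unadjusted p under 0.05 therefore depended on which sheep were compared. Without SM sheep 128, 42 members were higher in SM sheep at that level beside 12.7% of all tested genes, and 6 members passed both thresholds beside 1.34%. These 6 were RPL27, RPLP0, RPS16, RPS19, RPS21 and RPSA, with adjusted p from 0.0333 to 0.0488 in the quasi-likelihood test with Benjamini-Hochberg adjustment. Without SM sheep 30126, 5 members were higher in SM sheep at an unadjusted p under 0.05 beside 4.84% of all tested genes, and the median log2 fold change of the members was 0.14. With 30126 left out, 1 member passed both thresholds in the other direction, RPS3A. It was the only gene called in that direction among the 15199 tested (0.00658%). Without STH sheep XW5 or XW8, 2 and 3 members were higher in SM sheep at an unadjusted p under 0.05, or 2.78% and 4.17% of those tested, beside 3.13% and 4.8% of all tested genes. Without 30034 or XW3 there were 7 in each case, or 9.72%, beside 4.57% and 5.96%.

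The 3 sheep with the highest member levels, 30126, 30034 and XW3, were also the 3 with the highest exonic shares, and the members are short genes. With the exonic share as a covariate, the median log2 fold change of the members was 0.11, compared with -0.01 over all tested genes. The members' own counts are part of this share, at 12.05% of all counts in 30126 and 9.00% in 128. The covariate is therefore not independent of the members, and the fit cannot separate their level from the exonic share. In that fit 12 members, or 16.7%, were higher in SM sheep at an unadjusted p under 0.05, beside 5.6% of all tested genes. Toward STH there were 2, beside 10.5%. Exon lengths were 284 to 2233 bases in the members, with a median of 679.5, compared with 2925 over all counted genes. Among all tested genes, the median log2 fold change was 0.31 for the 138 genes with up to 500 bases of exons, 0.24 for the 1051 genes with more than that and up to 1000 bases and -0.01 for the 14131 longer genes. For the members it was 0.39, 0.30 and 0.13 in the same ranges, with 16, 46 and 10 genes. With each sheep's trend on exon length removed, the median of the members was 0.11 and that of all tested genes 0.08, and 4 members, or 5.56%, were higher in SM sheep at an unadjusted p under 0.05 beside 10.4% of all tested genes. The part of the exonic share and of exon length in the breed difference of single members was not tested beyond these fits.

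**Figure D4:**
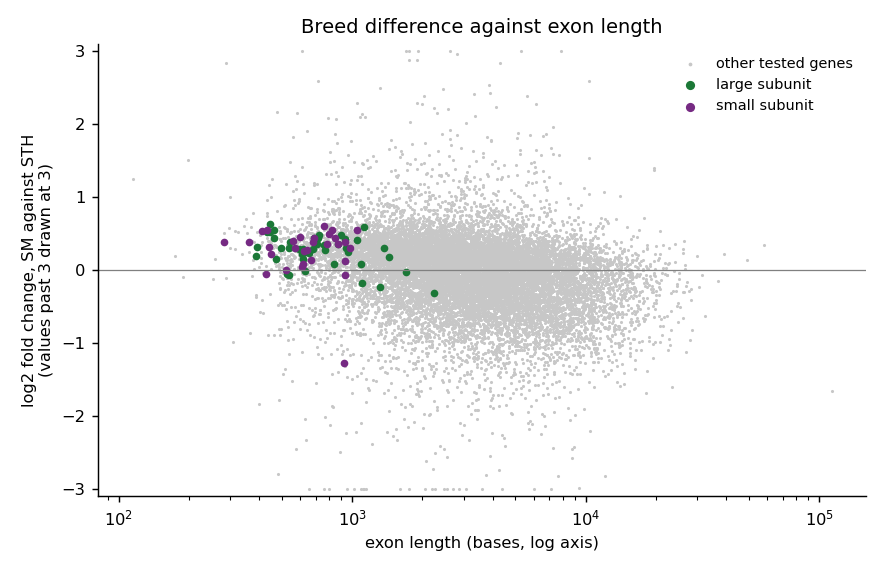
Log2 fold change, SM against STH, against exon length in bases (log axis) for all tested genes (grey) and for ribosomal protein genes (green large, purple small subunit). Genes with up to 500 bases have a median of 0.31 over all tested genes and 0.39 over the members, and the longest member, RPL5, lies below 0.

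RPS15A, a protein of the small subunit body, had the smallest p of the members. It lies at chr24:16387098-16392546 on the minus strand of Oar_v4.0. Its level was 154, 155 and 155 CPM in 128, 30034 and 30126 (SM) and 93.5, 109 and 114 CPM in XW3, XW5 and XW8 (STH). The 3 SM sheep were nearly equal and all above the STH sheep, and 30126 did not stand out. The means were 155 ± 0.885 and 106 ± 10.8 CPM (SD, n = 3), a log2 fold change of 0.55 ± 0.14 (SE), with an unadjusted p of 0.00303 and an adjusted p of 0.232 in edgeR's quasi-likelihood test with Benjamini-Hochberg adjustment. In DESeq2 the adjusted p was 0.0208 at a log2 fold change of 0.54, which is under 1.5-fold.

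The 5 members next to RPS15A by p were RPL27, RPS16, RPSA, RPLP0 and RPS19. RPLP0, the base of the stalk on the large subunit that recruits elongation factors, lies at chr17:62189954-62193753. Its level was 2958, 3452 and 4995 CPM in 128, 30034 and 30126 (SM) and 2707, 2486 and 2399 CPM in XW3, XW5 and XW8 (STH). All SM sheep were above all STH sheep, with 30126 far above the other 2 SM sheep. The log2 fold change was 0.59 ± 0.21 (SE), with an adjusted p of 0.254 in the quasi-likelihood test with Benjamini-Hochberg adjustment.

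RPSA, a small subunit protein also known as a laminin receptor, lies at chr19:12624508-12636310. It was at 1402, 1759 and 2215 CPM in SM sheep and at 1347, 1096 and 1094 CPM in STH sheep, in the same order of sheep. The breeds did not overlap, but SM sheep 128 and STH sheep XW3 were close. Its log2 fold change was 0.60 ± 0.20 (SE), with an adjusted p of 0.247 in the quasi-likelihood test with Benjamini-Hochberg adjustment.

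RPL27, a protein of the large subunit, was at 403, 534 and 568 CPM in SM and 357, 343 and 347 CPM in STH sheep. RPS16, whose tail contacts the bound tRNA, was at 788, 1094 and 1121 CPM and 714, 648 and 705 CPM. RPS19, the gene most often mutated in Diamond-Blackfan anaemia, was at 787, 961 and 1309 CPM and 755, 688 and 644 CPM. In these 3 genes no STH sheep reached the lowest SM sheep, 128, and the STH sheep were close to one another. Their log2 fold changes were 0.52 ± 0.16, 0.54 ± 0.17 and 0.55 ± 0.20 (SE).

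Further members at an unadjusted p under 0.05 included RPL35, RPS21, RPL18, RPL13A and RPL7A, with log2 fold changes from 0.44 to 0.55. RPLP1 and RPLP2, the acidic proteins that bind RPLP0 in the stalk, were at log2 fold changes of 0.39 ± 0.18 and 0.64 ± 0.28 (SE). RPLP2 had the highest log2 fold change of all members, but its unadjusted p was 0.0502 in the quasi-likelihood test. Its level was 371, 421 and 793 CPM in 128, 30034 and 30126 (SM) and 394, 316 and 309 CPM in XW3, XW5 and XW8 (STH). The breeds overlapped, and the value in 30126 was 2.57 times the lowest.

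By position, the members were spread over 24 chromosomes. Chromosome 14 held 9 tested members, among them RPL13, RPL13A, RPL18, RPL28, RPS9, RPS16 and RPS19. All 9 had positive log2 fold changes with a median of 0.44, and 5 of them were among the 12 members at an unadjusted p under 0.05. The median over all 924 tested genes of that chromosome was 0.13, and 10.2% of those were higher in SM sheep at an unadjusted p under 0.05. This chromosome was singled out after its values were seen.

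On the negative side, 11 members had lower levels in SM sheep, none with an unadjusted p under 0.05 in the quasi-likelihood test. RPL5, which binds the 5S ribosomal RNA and, with RPL11, the p53 regulator MDM2, lies at chr1:69149039-69157746. It was at 1653, 1623 and 1168 CPM in 128, 30034 and 30126 (SM) and at 1884, 1937 and 1713 CPM in XW3, XW5 and XW8 (STH). All STH sheep were above all SM sheep, and 30126, the highest sheep for most members, was the lowest for RPL5. The log2 fold change was -0.32 ± 0.18 (SE), with an adjusted p of 0.338 in the quasi-likelihood test with Benjamini-Hochberg adjustment.

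RPL6 was at 591, 803 and 931 CPM in SM and 977, 854 and 906 CPM in STH sheep, in the same order of sheep, with a log2 fold change of -0.24 ± 0.19 (SE). RPL7 was at 1679, 1902 and 1540 CPM and 2061, 1881 and 1829 CPM, with a log2 fold change of -0.17 ± 0.15 (SE). In both of these large subunit genes the breeds overlapped, through 30126 for RPL6 and 30034 for RPL7.

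Some members hardly varied between sheep. RPS4X, the X-linked form of a small subunit protein, was at 1891, 1911 and 1893 CPM in SM and 2102, 1937 and 1901 CPM in STH sheep, and RPL36A, also on chromosome X, was at 400, 408 and 357 CPM and 456, 377 and 385 CPM. The flattest member was RPS27L at chr7:43898029-43901498, with 85.8, 89.4 and 86.3 CPM in 128, 30034 and 30126 (SM) and 89.1, 88.0 and 85.0 CPM in XW3, XW5 and XW8 (STH). No sheep stood apart and the breeds overlapped, with a log2 fold change of -0.0038 ± 0.12 (SE). Its relative RPS27, a zinc finger protein of the small subunit, was at 1584, 1894 and 2558 CPM in SM sheep. In STH sheep RPS27 was at 1742, 1672 and 1449 CPM, and its highest value was in 30126 as in most members. The log2 fold change of RPS27 was 0.31 ± 0.20 (SE).

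The log2 fold changes of RPL26 and RPL4 were also near 0, at -0.01 ± 0.15 and -0.03 ± 0.14 (SE). RPL4, which lines the peptide exit tunnel, ranged from 3911 to 4411 CPM over the 6 sheep. RPL26, which also binds the mRNA of p53, ranged from 1243 to 1526 CPM. In both genes each breed's range lay within or across that of the other.

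RPS3A, a small subunit protein near the mRNA exit, was the exception among all members. It lies at chr17:6548659-6553540 on the minus strand. Its raw count was 465 and 322 in SM sheep 128 and 30034, compared with 39488 in SM sheep 30126 and 28682, 34365 and 22145 in XW3, XW5 and XW8 (STH). As CPM these were 15.4 and 7.13 against 1006, 930, 814 and 733. These 2 SM sheep were thus apart from SM sheep 30126, which was the highest of all.

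The lowest of the 4 high sheep was 47.7 times the higher of the 2 low ones. Of the 8990 tested genes with over 10 CPM in each of the 4 high sheep, RPS3A had the widest such gap, and the next was 2.03-fold. This pattern was singled out after its values were seen. RPS3A was lower in both sheep by at least 717 CPM, and the largest gain of any other gene in both 128 and 30034 over all other sheep was 244 CPM. In RPKM, which also covers genes with a count of 0, the same values were 528 and 159. Reads spread over several genes would not be seen by either comparison. The small subunit genes together had a median deviation from their 6-sheep means of -0.13 in 128 and 0.12 in 30034. A cause of the RPS3A values was not tested.

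Because the SM sheep split in this way, the log2 fold change of RPS3A was -1.27 ± 1.40 (SE), with an adjusted p of 0.605 in the quasi-likelihood test with Benjamini-Hochberg adjustment. Without 30126 it was -6.19, with an adjusted p of 0.00613 by the same test. The median log2 fold change of the other 71 members was 0.31.

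**Figure D5:**
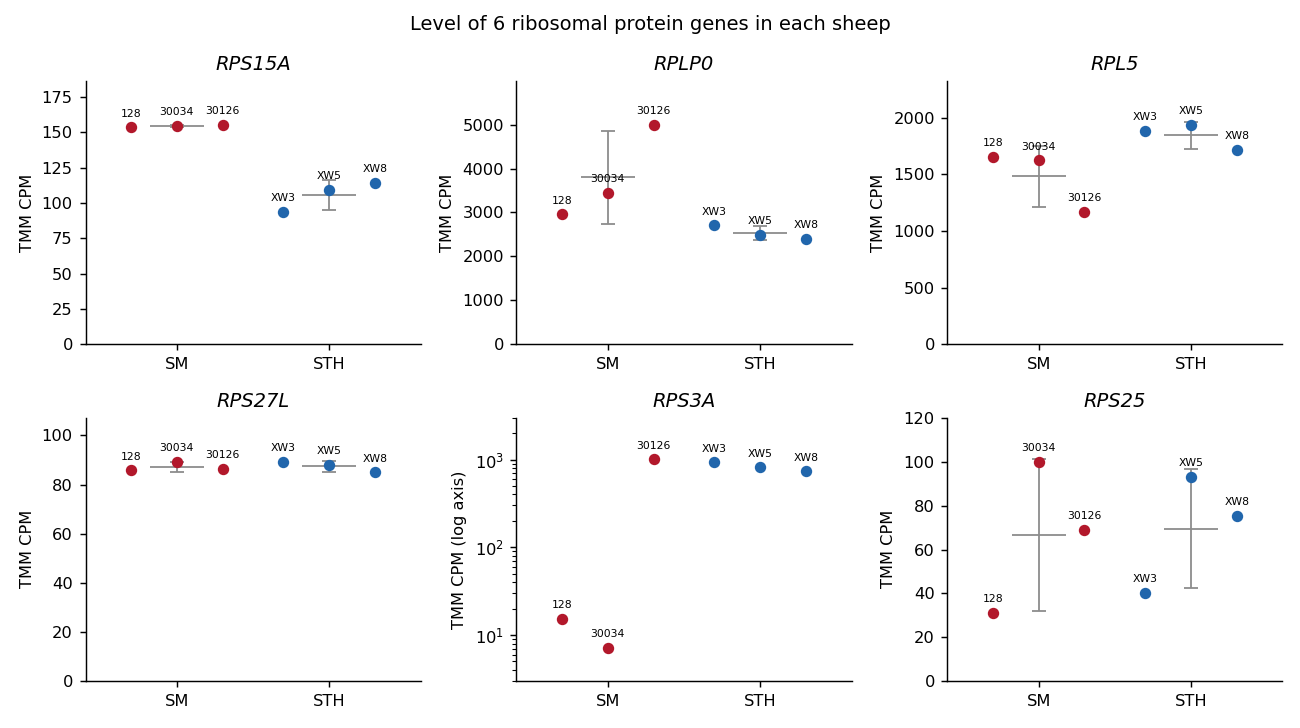
TMM-normalized CPM of 6 ribosomal protein genes in each sheep, with the mean and SD of each breed in grey (none for RPS3A, which has a log axis). RPS15A and RPLP0 are higher in all SM sheep, RPL5 in all STH sheep, RPS27L is flat, and RPS3A is low in SM sheep 128 and 30034 only.

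RPS25, a small subunit protein needed for initiation at several viral entry sites, was the next most uneven member. It was at 31.0, 100 and 69.0 CPM in 128, 30034 and 30126 (SM) and 40.0, 93.3 and 75.2 CPM in XW3, XW5 and XW8 (STH). The low sheep, 128 and XW3, came from different breeds and the breeds overlapped widely. The highest value was 3.23 times the lowest, and the log2 fold change was -0.06 ± 0.42 (SE). RPL39, the small protein of the exit tunnel, was at 278, 337 and 579 CPM in SM and 320, 262 and 249 CPM in STH sheep, and only 30126 stood out. Its log2 fold change was 0.52 ± 0.27 (SE), and that of RPS29 was 0.38 ± 0.30 (SE).

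Most members kept similar proportions over the 6 sheep. Relative to the median member of the same sheep, the SD of log2 CPM over 6 sheep had a median of 0.14 over the 72 members. It was under 0.2 in 55 of them, and among the rest it was 0.48 in RPL5 and 0.34 in RPL7. This SD was not computed for genes outside the members. The correlation of a member's log2 CPM with the mean of the other members over the 6 sheep, which share their libraries and depth, had a median Pearson r of 0.92. It was over 0.9 in 42 members and under 0 in 6. RPS3A was kept in these means.

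Outside the members, the 5 genes whose log2 CPM over the 6 sheep was most like the mean of the members had Pearson r from 0.995 to 0.997. Among these genes were LOC105612082, C4H7orf55, OAZ1 and ELAVL1. RPS3A is part of that mean, which was lowest in 128 at 9.777, beside 9.785 in XW8. OAZ1, an inhibitor of polyamine synthesis, was at 200, 256 and 354 CPM in 128, 30034 and 30126 (SM) and 237, 212 and 192 CPM in XW3, XW5 and XW8 (STH). Here too, 30126 was highest and 128 was below XW3, as in the mean of the members.

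Other genes that act with the ribosome were read from the same fit, and some of them stand in more than 1 list. Their counts at an unadjusted p under 0.05 can be read beside the shares over all tested genes, 7.21% toward SM and 10.8% toward STH. Of the 7 translation elongation factors, 6 had positive log2 fold changes with a list median of 0.23, and 0 had an unadjusted p under 0.05. EEF2, which moves the ribosome along the message, was at a log2 fold change of 0.45 ± 0.20 (SE), and EEF1D at 0.44 ± 0.22 (SE). EEF2 was at 1851, 2195 and 2929 CPM in SM and 1963, 1579 and 1571 CPM in STH sheep, again highest in 30126 and with 128 below XW3.

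Of 13 other genes with a 5′TOP or a place on the ribosome, 2 were higher in SM and 1 in STH sheep at an unadjusted p under 0.05, with a list median of 0.12. The 2 smallest p were those of NAP1L1, a histone chaperone, at -0.44 ± 0.15 (SE) and FAU, which carries the small subunit protein S30, at 0.42 ± 0.17 (SE). GNB2L1, which codes for the small subunit scaffold RACK1 and was picked after its values were seen, was at 0.42 ± 0.17 (SE). Of 5 tested genes with similar names outside the naming rule, 1 had an unadjusted p under 0.05, RPS19BP1, which is no relative but a nucleolar protein that binds RPS19, at 0.46 ± 0.18 (SE), and the list median was 0.17. RPL7L1 was next at 0.24 (log2 fold change), and 0 of the 4 relatives had an unadjusted p under 0.05.

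Of 49 tested genes with a name from EIF1 to EIF6, binding proteins and kinases included, 3 were higher in SM and 7 in STH sheep at an unadjusted p under 0.05, with a median of 0.06. EIF5B and EIF4E, which join the subunits and bind the cap, were at log2 fold changes of -0.59 and -0.56. Of 73 mitochondrial ribosomal protein genes, 3 were higher in each breed at an unadjusted p under 0.05, with a median of 0.19. The smallest p were those of MRPL1 at -0.65 and MRPL2 at 0.48.

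Of 50 tested ribosome biogenesis factors, 3 were higher in SM and 9 in STH sheep at an unadjusted p under 0.05, with a median of -0.06. In 11 of them (22%) all SM sheep were above all STH sheep and in 14 (28%) the reverse held, beside 12.3% and 13.3% of all tested genes. WDR43 and UTP20, both factors of small subunit assembly, were at -0.50 ± 0.14 and -0.59 ± 0.17 (SE). Of 10 tested polymerase I genes, 0 were higher in SM and 1 in STH sheep at an unadjusted p under 0.05, TAF1D at -0.82. TAF1A was next by p at -0.65, and the list median was 0.07. A list of 19 genes for the control of ribosomal protein translation also took in MYC and the RPS6KA kinases. At an unadjusted p under 0.05, 1 gene of this list was higher in SM sheep, EIF4EBP1, an inhibitor of initiation under mTOR, at 0.59. At that level 3 were higher in STH sheep, among them the kinase gene RPS6KA3 at -0.58. The list median was 0.09. None of the genes in these lists passed the adjusted threshold in the quasi-likelihood test.

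A few rows that code for ribosomal proteins were outside the naming rule. RPL10 and RPS26 were each split into 2 numbered rows, of which RPL10_2 held 49796 to 103585 counts and RPS26_1 37972 to 79924 counts, with 21 counts at most in RPL10_1 and 2 at most in RPS26_2. Adding these 4 rows left the median log2 fold change of the members at 0.31.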

How the data were processed

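Reads from polyA RNA of 6 skin libraries were checked by the authors with FastQC and mapped to Oar_v4.0 in CLC Genomics Workbench. The authors deposited, per sheep and gene, total counts without normalization, RPKM (scaled by exon length and counted fragments), TPM, and a score that they call CPM, scaled to an effective library size. TPM was used only to check the order of levels, and the deposited score was not used. The counted fragments behind the RPKM include some that matched more than 1 place. How the authors shared these among genes, and which classes of reads enter the total counts, is not given in the sources used here.

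Groups follow the breed in the labels. Replicate numbers follow the sample order and pair no sheep. The members and all gene lists were chosen with earlier results of these data known. Exon lengths and counted fragments were derived from counts and RPKM, with lengths whole to within 9e-05 bases over 10379 genes. The 15320 genes that reached 10 counts in 3 or more sheep were tested by edgeR 4.0.16 (R 4.3.3, TMM, quasi-likelihood test, Benjamini-Hochberg adjustment over all tested genes), and members were read from that fit. A standard error is the log2 fold change divided by the square root of F. CPM in the text are TMM-normalized. Floors of 3 counts cover counting error only.

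Named members are the 6 with the smallest p in each direction, the 5 highest and 5 lowest in RPKM and the 5 most variable. Added to these were the 3 nearest to no change and those ending in L with the members they are named after. From each list 2 genes were named. A few single genes are not reported here and are left out of the plots that name genes. Identifiers of 71 members carried the same symbol in a RefSeq name table. Alternatives were the likelihood ratio test, DESeq2 1.42.0, other normalizations, no filter, the exonic share, a length trend (loess span 0.5), each sheep left out, and, chosen after seeing the data, limma-voom (limma 3.58.1), a newer dispersion estimate and 4 added rows. The tests were tested on simulated data first. Summaries and plots used Python 3.11.15, pandas 2.3.3 and matplotlib 3.10.9.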

Additional observations from a re-analysis of the deposited data

Results flagged for a closer look

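Signal was present in a measure that the breed comparison did not use. LOC101103316, which the name table gives as RPS28, had a count of 0 in all 6 sheep, yet an RPKM of 32.4, 46.9 and 65.9 in 128, 30034 and 30126 (SM) and of 37.3, 28.9 and 28.6 in XW3, XW5 and XW8 (STH, mean 39.99). As in most members, 30126 was highest and XW8 lowest. LOC101109155, which the name table gives as RPL37A, also had a count of 0 throughout and a mean RPKM of 0.795, with its highest value, 1.02, in 30034. How these values arose was not tested. With 3 sheep per breed, single sheep were not tested as outliers, which also applies to RPS3A in 128 and 30034.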

How the results depend on the processing

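The median log2 fold change of the members was positive under all 18 alternatives, from 0.11 with the length trend removed to 0.46 without sheep 128. Leaving out single sheep gave 0.14 to 0.46 for this median. In these fits 0 to 6 members were called higher in SM sheep, beside 0.0% to 1.34% of all tested genes. Toward STH 0 to 1 members were called, beside 0 to 972 of all tested genes. At an unadjusted p under 0.05, 2 to 42 members were higher in SM sheep, beside 3.13% to 12.7% of all tested genes. At the same level 0 to 1 were higher in STH sheep, beside 4.21% to 17.6%. At that level, 20 members were higher in SM sheep with total counts only and 4 with the length trend removed, beside 7.7% and 10.4% of all tested genes, and 2 were higher in STH sheep with the exonic share as a covariate and 1 with limma-voom, beside 10.5% and 13.4%. Why these counts moved was not tested.

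Of the 24 tested members named, 18 kept the sign of their log2 fold change under the 17 fits tried. RPL26, RPL4 and RPS27L turned positive with upper quartile normalization (0.025, 0.0037 and 0.030), and RPS29 turned to -0.0067 with the exonic share. With sheep left out, the fitted values ranged from -0.064 to 0.068 for RPL26, from -0.116 to 0.025 for RPL36A, from -0.100 to 0.010 for RPL4, from -0.49 to 0.28 for RPS25 and from -0.033 to 0.017 for RPS27L. RPS3A was at -5.14 with the exonic share and at -4.09 with limma-voom, and DESeq2 gave it no adjusted p. The order of levels was nearly the same by length-scaled counts and by TPM (Spearman rho 1.00 in both, over 74 genes). No paired analysis was possible because the labels pair no sheep. The planned fits on RPKM of members with a count of 0, and the planned search of promoters for motifs, were not run, the first because no such member was found and the second because no promoter sequence was used here. Only 3 sheep per breed limit what a single gene can show.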
